A study of Mus musculus with 27 samples.

Results

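Medulloblastomas that had grown under the Smoothened antagonist NVP-LDE225 (LDE225) at its lower dose of 20 mg/kg/day were compared with tumours given vehicle. The comparison was defined by sample title alone. It took the 2 tumours labelled resistant at that dose and the 8 vehicle tumours, 10 of the 21 tumours profiled for RNA and of the 27 samples in the series. All tumours descended from medulloblastomas of Ptch+/-p53-/- mice, so vehicle and resistant tumours shared this genotype of the donor mice. Other changes in their DNA were not compared here. Cells dissociated from such tumours were placed under the skin of the right flank of nu/nu nude mice, and dosing began about 10 days later. The resistant tumours received LDE225 at 20 mg/kg/day on a bid schedule (2 doses a day), became apparent after 13 units of uninterrupted dosing (the label gives no unit), and were harvested on day 26 of treatment. The vehicle tumours were labelled sensitive. Of these, 3 were taken at 4 h, 3 at 16 h and 2 at 48 h. For reference, RNA was also available from sensitive tumours under LDE225 at 20 mg/kg/day qd (1 dose a day), with 3 at 4 h, 3 at 16 h and 2 at 48 h. A further 3 tumours were resistant at 160 mg/kg/day bid. Each array held 1 tumour of 1 mouse. The ages of the mice and the origin of the grafts of the different arms are not given in the sources used here. No vehicle RNA of day 26 was analysed here, so resistance, length of treatment and time since grafting cannot be told apart.

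Hedgehog signalling drives this tumour type. The receptor Ptch1 normally holds the membrane protein Smoothened in check, and when Ptch1 is lost Smoothened stays active and the Gli transcription factors switch on genes that keep granule neuron precursors of the cerebellum dividing. Antagonists of Smoothened shut this programme off, and tumours can resume growth under the drug. Loss of p53 removes a main brake on damaged cells. The graft sits outside the brain, and a nude mouse lacks mature T cells but keeps B cells, natural killer cells, macrophages, vessels and connective tissue, whose RNA is measured with that of the tumour. In such bulk RNA, fewer cells of a type and less RNA per cell give the same value.

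Expression was read on Affymetrix arrays as a signal per probe set, a group of short probes for 1 transcript. No table used here gives the gene of a probe set. Probe sets are therefore given by identifier, and cell type markers and Hedgehog genes could not be checked against the labels. The signal is linear and relative, so levels are compared within a probe set and never between probe sets. Differences are on the scale of log2(signal + 4), on which 1 is a doubling for bright probe sets and less than the true change for dim ones. Mean signal per array lay between 221.4 and 256.4, and the number of arrays limits the precision.

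Resistant tumours at 20 mg/kg/day differed from vehicle at 1373 of 45037 probe sets, or 3.05% (limma, adjusted p below 0.05, 8 residual degrees of freedom). Of these, 926 were higher (2.06% of those tested) and 447 lower (0.993%). A change of at least 2-fold was reached at 913 of them (2.03% of those tested), 721 higher (1.6%) and 192 lower (0.426%). The values of the 2 resistant tumours lay wholly above or wholly below the 8 vehicle values at 918 of the 926 higher (2.04% of those tested) and 439 of the 447 lower probe sets (0.975%). Such separation by itself was common, since among all probe sets 4202 (9.33%) lay wholly above and 2107 (4.68%) wholly below.

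The balance between rises and falls depended on how arrays were put on 1 scale. As deposited, the median signal was 30.0 and 29.4 on the resistant arrays and 21.6 to 28.2 on the vehicle arrays, and the median difference over all probe sets was 0.087. When array medians were made equal, that median moved to -0.176 and the split turned to 488 higher and 1447 lower. With quantile normalization it was 702 higher and 609 lower. Among the 1373 probe sets, 934 also passed with equal medians and 1084 with quantile normalization.

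On the deposited scale, rises and falls sat at different signal levels. Among the 21672 probe sets with a mean signal below 25 over the 21 arrays, 179 were higher (0.826%) and 20 lower (0.0923%). Between 25 and 100, 324 of 9118 were higher (3.55%) and 54 lower (0.592%). Between 100 and 400, 300 of 8551 were higher (3.51%) and 185 lower (2.16%). At 400 or more the order turned, with 123 of 5696 higher (2.16%) and 188 lower (3.3%). The median difference over all probe sets of a class was 0.10, 0.22, 0.07 and -0.05 in that order. As deposited, the brightest class was thus the only one of the 4 whose median was below 0. The classes were not counted again on another scale. Equal array medians lower the difference of every probe set alike, so these signs and counts are given for the deposited scale only.

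Single tumours decided how many probe sets passed. Without resistant tumour 2 the count was 124 (102 higher, 22 lower), while without resistant tumour 1 it was 1102. A lone tumour was then assumed to vary like the vehicle tumours. Leaving out 1 vehicle tumour gave between 943 and 1700.

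Tumour 2 lay farther from vehicle than tumour 1 at most of the probe sets that passed. At the 926 higher ones the median difference from the vehicle mean was 1.21 in tumour 1 and 1.49 in tumour 2, and tumour 2 had the larger departure at 667 (72%). At the 447 lower ones the medians were -0.74 and -1.14, and tumour 2 had the larger departure at 359 (80.3%). Over all 45037 probe sets the share was 56.2%. Departures beyond every vehicle value by at least 4-fold were found at 89 probe sets above and 31 below in tumour 2, against 32 above and 1 below in tumour 1. Both tumours were that far above the vehicle range at 14 probe sets, and at none were both that far below it.

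**Figure D1:**
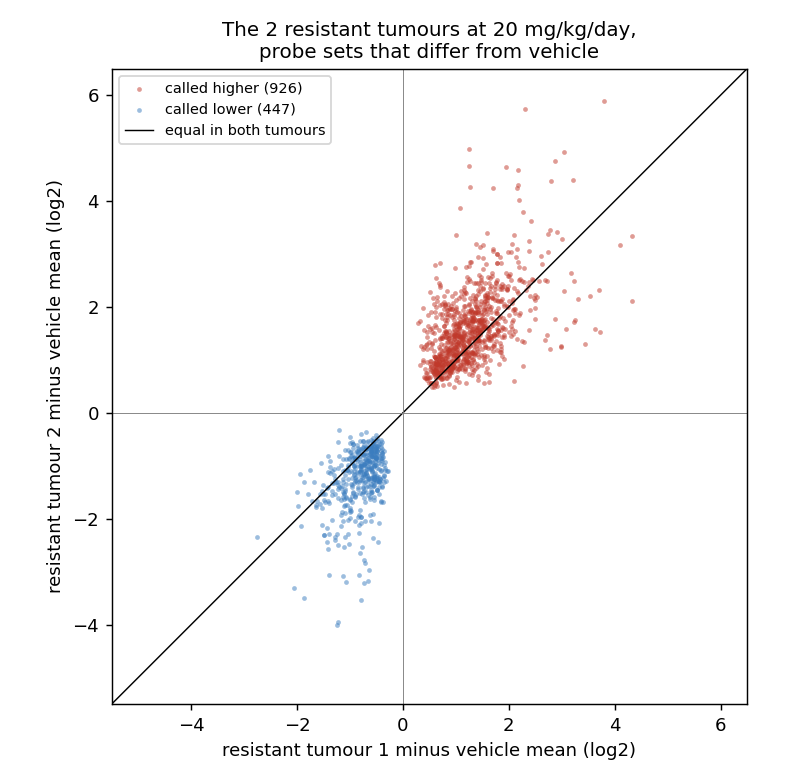
Each point is 1 of the 1373 probe sets that passed, with the log2 difference from the mean of 8 vehicle tumours in resistant tumour 1 (x axis) and in resistant tumour 2 (y axis). Red points are the 926 higher and blue points the 447 lower probe sets, the line marks equal differences, and most of the points farthest from 0 lie on the side of tumour 2.

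The resistant pair was nevertheless no more dissimilar than vehicle tumours of 1 harvest time. Over the 14247 probe sets with a mean signal of at least 100, the 2 resistant tumours were 2-fold or more apart at 389 (2.73%), 208 of them higher in tumour 1 and 181 in tumour 2. The 7 vehicle pairs of equal harvest time ranged from 63 (0.442%) to 502 (3.52%). The 3 pairs of tumours resistant at 160 mg/kg/day were apart at 1109 to 1221. As a description over all 45037 probe sets, which are not independent of each other, the Pearson correlation of log2 signals was 0.967 between the resistant tumours, 0.962 to 0.979 within vehicle pairs of equal time and 0.949 to 0.967 between resistant and vehicle tumours.

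Of 595 rising and 380 falling probe sets that passed, were separated from vehicle and reached a mean signal of 100 in the higher group, the 2 largest rises and the 2 largest falls are described in full. They were picked for the size of this difference.

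The largest rise was that of 1435165_at. Its signal was 641.4 and 2735 in resistant tumours 1 and 2, and 30.1 to 59.7 with a median of 39.5 in the 8 vehicle tumours. Both resistant values were more than 10-fold above the highest vehicle value. The log2 difference was 4.84 (standard error 0.38, limma, adjusted p = 8e-05), or 28.6-fold on that scale. Sensitive tumours under the drug had 49.2, 35 and 51 at 4 h, 263.9, 143.8 and 185.5 at 16 h and 906.1 and 1175.5 at 48 h. They were within the vehicle range at 4 h and above it at both later times. At 160 mg/kg/day the signals were 87.5, 234.8 and 117.2, above every vehicle tumour and below both tumours at 20 mg/kg/day.

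The second rise, that of 1456035_at, had another pattern. Its signal was 52.9 and 610.3 in resistant tumours 1 and 2, so tumour 2 was far above tumour 1. Vehicle tumours had 4.5 to 12.3 with a median of 7.7, close to the offset of 4. The log2 difference was 4.02 (standard error 0.60, limma, adjusted p = 0.0023). It was 2.56 with an offset of 32, and 2.30 without tumour 2, which missed the threshold (limma, adjusted p = 0.062). The 8 sensitive tumours under LDE225 lay between 6.3 and 14.7, and those at 160 mg/kg/day had 0.4, 23.8 and 1. Among the 21 tumours this probe set was bright in tumour 2 at 20 mg/kg/day, moderate in tumour 1 of that dose and dim in the others.

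The largest fall was that of 1424007_at, with 77.4 and 22.3 in the resistant tumours against 217 to 359.1 (median 303) in vehicle tumours. The log2 difference was -2.68 (standard error 0.30, limma, adjusted p = 0.00029). Sensitive tumours stood at 36.4, 54.7 and 40.9 after 4 h of drug, 38.6, 35.9 and 19.3 after 16 h, and 56.9 and 65.9 after 48 h. Tumours resistant at 160 mg/kg/day had 92.7, 62.1 and 65.2. All 13 tumours under LDE225, sensitive or resistant, were therefore below all 8 vehicle tumours.

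The second fall was that of 1418094_s_at, with 315.5 and 42.9 in the resistant tumours against 522.3 to 944.4 (median 747.9) in vehicle tumours. The log2 difference was -2.62 (standard error 0.44, limma, adjusted p = 0.0051), and -1.23 without tumour 2, which missed the threshold (limma, adjusted p = 0.056). In sensitive tumours it was 558, 496 and 683.9 at 4 h, 156.6, 132.4 and 95.7 at 16 h and 78.5 and 60.8 at 48 h. At 160 mg/kg/day it was 371.9, 94.6 and 82. Tumour 2 was the lowest of the 21 tumours, below both sensitive tumours of 48 h, while tumour 1 lay between these and vehicle.

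**Figure D2:**
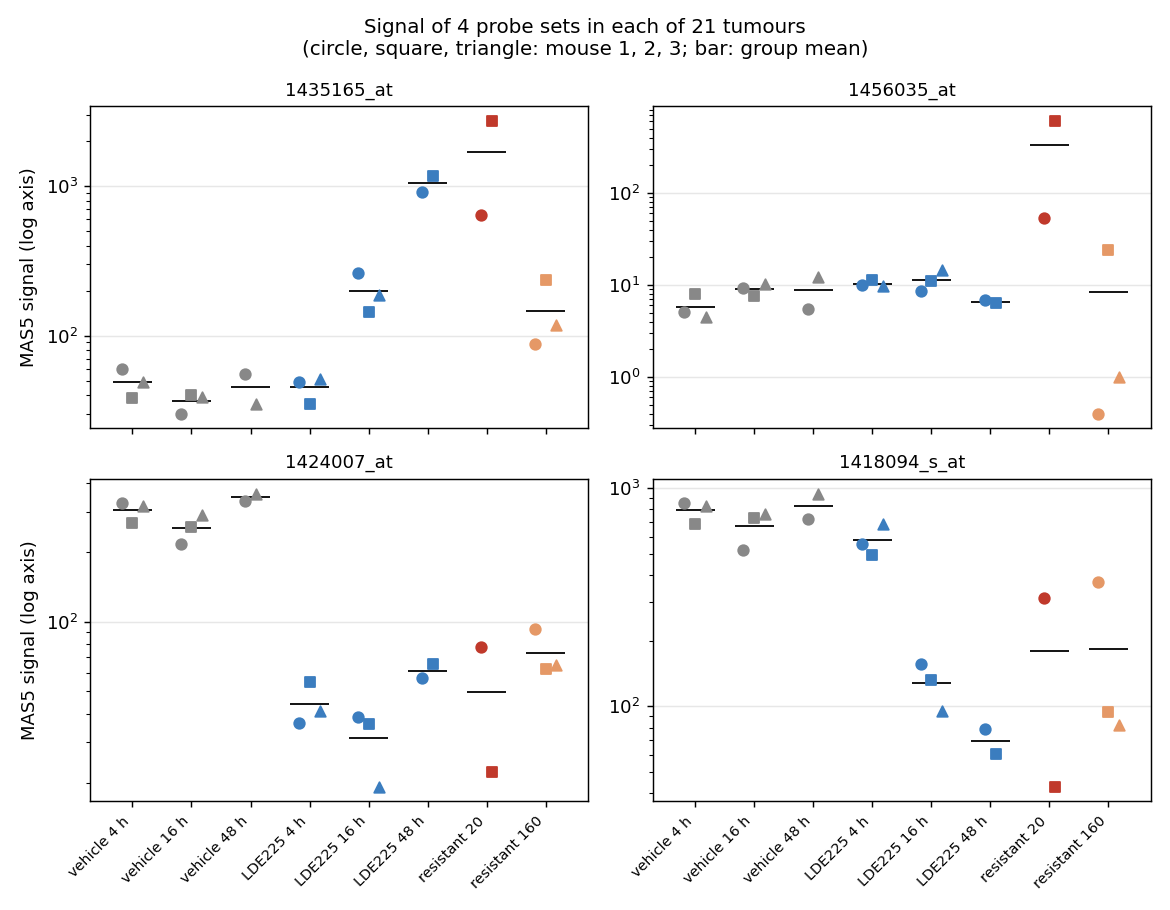
MAS5 signal (log axis) of the 4 probe sets in each of the 21 tumours by group, with circles, squares and triangles for mouse 1, 2 and 3 and a bar for the group mean. In the panel of 1424007_at all tumours under LDE225 lie at 92.7 or below and all vehicle tumours at 217 or above, while 1456035_at is raised mainly in resistant tumour 2 (610.3).

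The array's control probe sets carry the names of 4 mouse genes in their identifiers, and these genes were chosen for that reason. Each value is that of the gene's 3′ control probe set, and no other probe set of these genes was tested. Pyruvate carboxylase, which makes oxaloacetate from pyruvate, had a signal of 435 and 262 in the resistant tumours against 457.7 to 664 (median 592.3) in vehicle tumours. Both resistant values were below all vehicle values, with a log2 difference of -0.77. An exact permutation test, two-sided, gave p = 0.0444, the lowest value possible with 45 splits. It did not pass after adjustment over the 4 genes (0.119). The transferrin receptor, which brings iron into dividing cells, stood at 122.9 and 158 against 43.3 to 134.3 (log2 difference 0.70, exact permutation p = 0.0889, adjusted 0.119). Beta-actin had 9779.3 and 10147.8 against 7175.1 to 10077.2 (0.31, exact permutation p = 0.0889, adjusted 0.119). Gapdh, an enzyme of glycolysis, had 7159.1 and 8497.8 against 5779.9 to 9142 (0.19, exact permutation p = 0.311, adjusted 0.311), and its difference was -0.08 with equal array medians. The other 3 kept their sign under quantile normalization and equal medians, but not their size. With equal medians beta-actin was close to 0 at 0.04, the transferrin receptor stood at 0.44 and pyruvate carboxylase at -1.03.

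How much of the early response to LDE225 was seen in tumours resistant at 20 mg/kg/day was followed with probe sets picked by their difference at 16 h. There, 780 probe sets rose and 816 fell at least 2-fold under the drug (limma, adjusted p below 0.05). They were then measured against the 5 vehicle tumours of 4 h and 48 h, which were not part of that difference. In both steps the spread of a probe set came from all 21 arrays. Probe sets with little spread pass both steps more easily, which by itself raises the share called above that of all probe sets. This holds for every set picked below. The median of a set does not rest on the second threshold. Of the 780 that had risen, 162 (20.8%) were higher in the resistant tumours, against 1.96% of all probe sets, and 3 were lower. Their median log2 difference was 0.47, against 0.09 for all probe sets, with 0.39 in tumour 1 and 0.59 in tumour 2. Of the 816 that had fallen, 59 (7.23%) were lower, against 0.793% of all, and 7 were higher. Their median was -0.29, with -0.18 in tumour 1 and -0.37 in tumour 2. Both resistant tumours had thus shifted in the direction of the drug response at the median of each set, tumour 2 further than tumour 1. Without tumour 2 the counts were 40 and 6, against 0.215% and 0.0488% of all. With equal array medians 101 and 154 passed, against 0.904% and 2.53% of all.

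Sensitive tumours of 48 h were farther along in the same direction. These 2 tumours were not part of the difference used for the choice at 16 h. Measured against them, 439 of the 816 fallers (53.8%) were higher in resistant tumours at 20 mg/kg/day, against 7.66% of all probe sets. The median log2 difference was 0.90. Of the 780 risers, 204 (26.2%) were lower, against 7.35% of all, with a median of -0.48. The daily dose was equal in these groups and the schedule was not. In all, 3137 probe sets (6.97%) differed between resistant tumours at 20 mg/kg/day and the 5 sensitive tumours of 16 h and 48 h, 1929 of them higher (4.28%) and 1208 lower (2.68%). The count was 1299 without resistant tumour 1, 1023 without resistant tumour 2 and 2054 without sensitive tumour 1 of 48 h. Since the choice of the 4 probe sets described above rested on these same resistant tumours, their differences here are a description without a test. On the log2 scale 1435165_at was higher in the resistant tumours by 1.80, and by 0.76 without tumour 2. The difference of 1456035_at was 3.83, and 2.11 without tumour 2. The falling 1424007_at and 1418094_s_at had log2 differences of 0.07 and 0.25.

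A choice from the tumours of 48 h, measured against vehicle of 4 h and 16 h, gave 607 of 2874 risers higher at 20 mg/kg/day (21.1%, against 3.88% of all) and 199 of 1445 fallers lower (13.8%, against 2.18% of all). The medians were 0.57 and -0.20, against 0.09 for all probe sets. In tumours 1 and 2 they were 0.46 and 0.70 for risers and -0.11 and -0.28 for fallers. Measured against sensitive tumours of 16 h instead, 448 of the 1445 fallers (31%) were higher, against 3.02% of all. Among the risers 127 (4.42%) were higher, against 3.02% of all, and 69 (2.4%) lower, against 1.64% of all. Their median was 0.04, against 0.02 for all probe sets.

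At the higher dose the sets of 16 h had medians closer to that of all probe sets, 0.04 for risers and -0.10 for fallers against 0.04 for all. In tumours resistant at 160 mg/kg/day 41 of the 780 risers (5.26%) were higher than vehicle of 4 h and 48 h, against 1.11% of all probe sets. Of the 816 fallers 37 (4.53%) were lower, against 1.04%. The sets of 48 h, against vehicle of 4 h and 16 h, gave 239 of 2874 risers higher (8.32%, against 4.07% of all) and 193 of 1445 fallers lower (13.4%, against 3.37% of all). Calls in the opposite direction at this dose differed by set. Of the 780 risers of 16 h 26 were lower (3.33%, against 1.04% of all). Of the 816 fallers of 16 h 13 were higher (1.59%, against 1.11% of all). Of the 1445 fallers of 48 h 110 were higher (7.61%, against 4.07% of all). The 2874 risers of 48 h had fewer such calls than all probe sets, with 50 lower (1.74%, against 3.37% of all). The 2 doses share these vehicle tumours, so they were also compared directly. Between 160 and 20 mg/kg/day 190 probe sets (0.422%) differed, 167 lower (0.371%) and 23 higher (0.0511%) at the higher dose. Of the 780 risers, 53 (6.79%) were lower at 160 mg/kg/day and 3 were higher, with a median log2 difference of -0.50 against -0.04 for all probe sets. The 3 tumours at 160 mg/kg/day stood at -0.41, -0.46 and -0.58 relative to the mean of the 2 tumours at 20 mg/kg/day. Of the 816 fallers, 3 were higher at 160 mg/kg/day, with a median of 0.20. When single tumours were left out, the count of 190 became 406 (tumour 1 of the lower dose), 3 (tumour 2 of the lower dose) or 1080 (tumour 1 of the higher dose). In limma a fit of the 5 resistant tumours by themselves called 0, while 2772 had an unadjusted p under 0.05.

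**Figure D3:**
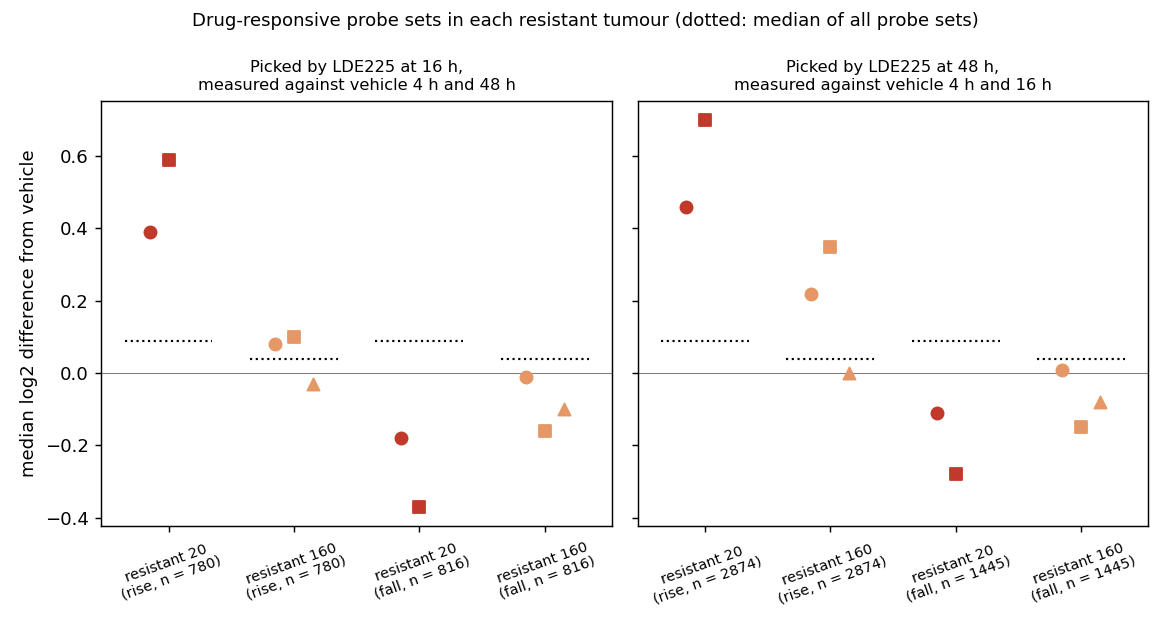
Median log2 difference from vehicle of probe sets that rose or fell under LDE225 in sensitive tumours, in each tumour resistant at 20 mg/kg/day (red) and 160 mg/kg/day (orange), with symbols for mouse 1, 2 and 3. The left panel uses sets picked at 16 h and the right panel sets picked at 48 h, dotted lines mark the median of all probe sets, and for risers picked at 16 h the tumours at 20 mg/kg/day (0.39 and 0.59) lie above those at 160 mg/kg/day.

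What the resistant tumours of both doses had in common was measured on separate controls. Probe sets at least 2-fold higher at 160 mg/kg/day than in vehicle of 4 h numbered 546, and 106 of them (19.4%) were higher at 20 mg/kg/day than in vehicle of 16 h and 48 h, against 2.6% of all probe sets. The median log2 difference was 0.59, against 0.08 for all, with 0.63 in tumour 1 and 0.57 in tumour 2. Of 210 that were lower at 160 mg/kg/day, 44 (21%) were lower at 20 mg/kg/day, against 1.37% of all. Their median was -0.51. Without tumour 1 the counts were 68 and 34, against 1.73% and 1.15% of all, and without tumour 2 they were 28 and 7, against 0.309% and 0.091% of all. With equal array medians 79 and 67 passed, against 1.14% and 2.68% of all. Against vehicle of 48 h alone the medians of the 546 and the 210 were 0.14 and -0.31, against 0.07 for all. Picked the other way, 675 probe sets were higher at 20 mg/kg/day than in vehicle of 4 h. Of these, 146 (21.6%) were higher at 160 mg/kg/day than in vehicle of 16 h and 48 h, against 1.15% of all, and of 119 lower ones 60 (50.4%) were lower, against 1.11%.

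The vehicle tumours came from different harvest times, and a measure tied to RNA quality was lower at 48 h than at the earlier times. The signal of the 3′ actin probe set over that of the 5′ one, which depends on RNA integrity and labelling, was 1.40 in both resistant tumours, 1.27 to 1.34 at 160 mg/kg/day, 1.60 to 1.87 in vehicle tumours of 4 h and 16 h, and 1.30 and 1.25 in those of 48 h. With the ratio as a covariate in the fit of 10 arrays, 1579 probe sets differed in place of 1373. Only 1074 of the 1373 were among them. In the model of 21 arrays, 2117 differed from all 8 vehicle tumours and 630 (1.4%) from the 2 of 48 h alone, whose ratio was also low, with 452 higher and 178 lower. The latter contrast also rests on fewer vehicle tumours. Against vehicle of 48 h alone, 104 of the 780 risers of 16 h (13.3%) were higher, against 1% of all probe sets, and 17 of the 816 fallers (2.08%) were lower, against 0.395%. Of the 546 and 210 probe sets picked at 160 mg/kg/day, 49 (8.97%) were higher and 16 (7.62%) lower by that measure. Their medians were 0.14 and -0.31 in place of 0.59 and -0.51, against 0.07 for all probe sets. For the 546 the median was thus close to that of all, with 0.24 in tumour 1 and 0.13 in tumour 2. For the 210 it was -0.19 and -0.43. Against the vehicle tumours of 48 h the 4 probe sets named above had log2 differences of 4.78, 3.91, -2.92 and -2.76. They had been picked in a comparison that included these vehicle tumours, so these values are a description without a test.

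**Figure D4:**
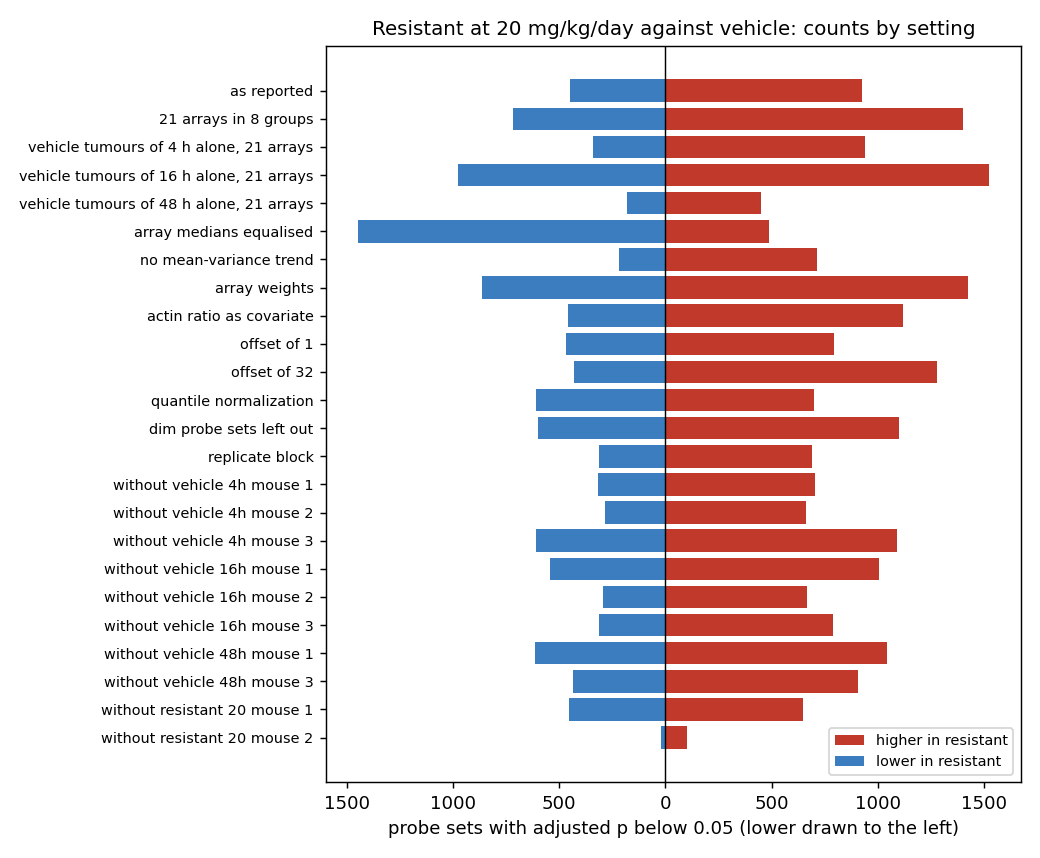
Number of probe sets with adjusted p below 0.05 in resistant tumours at 20 mg/kg/day against vehicle, higher ones to the right (red) and lower ones to the left (blue), as reported and under each other setting. Higher calls outnumber lower ones except with equal array medians (488 and 1447), and the fewest are left without resistant tumour 2 (102 and 22).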

How the data were processed

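RNA of 21 tumours was measured on Affymetrix mouse expression arrays. The deposited values are linear intensities per probe set, made by the authors with MAS5 per the submitters' processing notes. Version, scaling target and build are not given in the sources used here. DNA arrays were not used, since no tumour of this comparison is labelled as measured on them.

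An offset of 4 (20th percentile of signal 3.8) was added and log2 taken. All 45037 probe sets other than 64 controls were tested, 2 resistant against 8 vehicle tumours as 2 groups, with limma 3.58.1 in R 4.3.3, a mean-variance trend and two-sided tests adjusted by Benjamini-Hochberg at 0.05. All other comparisons came from 1 model of 21 arrays in 8 groups with 13 residual degrees of freedom. Vehicle groups were averaged by number of tumours. Members and lists were chosen with earlier results of these data known. The 4 control genes and the sets picked by differences between other arrays were chosen after seeing the data. Gene lists and gene names were planned, but no table used here gives the gene of a probe set, so the rule for naming took the 2 largest rises and falls among separated probe sets with a mean signal of at least 100. On simulated data for resistant against vehicle, 200 log2 changes of 1 and, in a separate run, 200 of 2 were planted among 45037 probe sets. They were placed only at probe sets with a mean signal of at least 25, and 36.5% and 88.5% were recovered. Noise was drawn as normal for each probe set by itself, with the spread of the vehicle tumours. Recovery at the 21672 dimmer probe sets was not measured, and recovery in the real data may differ. No 2 arrays correlated above 0.979. Nothing says whether tumours of a group came from separate donor tumours, so p-values measure only the spread between these samples.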

Additional observations from a re-analysis of the deposited data

Results flagged for a closer look

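The 2 resistant doses differed in the direct test at 190 probe sets. Both rising probe sets named for the dose of 20 mg/kg/day were lower at 160 mg/kg/day, with log2 differences (160 minus 20) of -3.26 for 1435165_at and -4.46 for 1456035_at. They had been picked for high values at 20 mg/kg/day, which favours such a difference, so these values are a description without a test. Without tumour 2 of that dose the differences were -2.22 and -2.74. In vehicle tumours the beta-actin control signal of 1 tumour of 4 h, 10077.2, stood apart from the other 7, with a gap of 0.545 of the whole range. It was 1 of 10 measures examined this way, and chance alone marks about 1 in 20.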

How the results depend on the processing

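For resistant tumours at 20 mg/kg/day against vehicle the count of 1373 became 2117 with 21 arrays in 8 groups and 2289 with array weights. From 2117 in that larger model it moved to 1280, 2500 and 630 against vehicle of 4 h, 16 h and 48 h alone. It stayed within 1.5 times of 1373 under the other 8 settings that kept all tumours. Of the 1373, 447 also passed against vehicle of 48 h alone in the larger model. Leaving out 1 tumour gave 124 to 1700 here, 3 to 1080 for the 2 doses and 1023 to 3389 against sensitive tumours. The 2 doses gave 0 by themselves. Mouse numbers did not pair the tumours: the difference of mouse 1 and 2 correlated at -0.089 and -0.06 with that in vehicle of 4 h and 16 h. With a replicate block the counts were 1000, 167 and 3313. The named probe sets kept their direction against vehicle under all 23 settings. They had been picked for large differences with separated values, which favours this in advance, so it is a description without a test. Differences that had not passed changed sign when 1 tumour was left out: between doses 1424007_at to -0.10 and 1418094_s_at to -1.12 without tumour 2 of 20 mg/kg/day, and 1418094_s_at to -0.41 without tumour 1 of 160 mg/kg/day. Against sensitive tumours 1424007_at turned to -0.16 without sensitive tumour 3 of 16 h and to -0.75 without resistant tumour 1, and 1418094_s_at to -1.14 without the latter. Without tumour 1 of 20 mg/kg/day the dose differences of 1424007_at and 1418094_s_at rose to 1.53 and 1.65. These values rest on 1 tumour of that dose. Both probe sets had been picked for low values there, so the values are a description without a test. Leaving out 1 tumour took these 2 probe sets, without resistant tumour 2, to 0.88 and 1.63 against sensitive tumours (1424007_at and 1418094_s_at). Causes were not tested. A mean over the probe sets of a gene was not run.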
